A study of Homo sapiens with 9 samples.

Results

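The 10 genes described here carry the JAK-STAT and BCR-ABL signals of K562 cells: BCR, ABL1, EPOR, JAK2, STAT5A, STAT5B, SOCS2, SOCS3, CISH and PIM1. They were taken by name, from a list, out of 58214 genes, with no threshold on a measured value. The list was chosen with earlier results of these data known. Transcripts of the 10 genes numbered 67 in the deposited tables and were summed per gene. All 10 genes passed the filter on low counts.

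K562 is a human myelogenous leukaemia line that grows in suspension. All 9 libraries came from this line, transfected with siRNA and harvested on day 4, and were made from poly(A) RNA. The 3 control libraries (SCR) had a non-targeting siRNA pool, 3 libraries had an siRNA pool against DHX34, and 3 had siRNAs I and II against UPF1. UPF1 is the core helicase of nonsense-mediated decay (NMD), the pathway that removes transcripts with premature stop codons, and DHX34 is a helicase that acts with it. The study describes the replicates as biological and states that 3 of 4 were used for sequencing. How the 3 were chosen is not given. A knockdown lowers its target without removing it, a single line was used, and BCR-ABL, which K562 carries, was present in the controls as well.

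In K562 the BCR-ABL fusion kinase is active at all times and phosphorylates STAT5, which otherwise waits for a cytokine receptor such as the erythropoietin receptor to activate JAK2. Phosphorylated STAT5 enters the nucleus and switches on genes that include its own brakes: SOCS2, SOCS3 and CISH belong to a family of SH2-domain proteins that bind receptors or kinases and dampen the signal, while PIM1 is a serine/threonine kinase that favours survival. Levels of these targets are often read as an output of the pathway, although RNA alone does not report on phosphorylation.

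STAT5 binds palindromic sites of the form TTCNNNGAA, which reads the same on both strands. The 250 bases before the annotated start of CISH are shown because they were the only such stretch among the 10 genes with any match. They lie at chr3:50611775-50612024 on the minus strand of GRCh38.p14 and are RefSeq's, written in the direction of transcription with the 4 matches in capitals.
CISH: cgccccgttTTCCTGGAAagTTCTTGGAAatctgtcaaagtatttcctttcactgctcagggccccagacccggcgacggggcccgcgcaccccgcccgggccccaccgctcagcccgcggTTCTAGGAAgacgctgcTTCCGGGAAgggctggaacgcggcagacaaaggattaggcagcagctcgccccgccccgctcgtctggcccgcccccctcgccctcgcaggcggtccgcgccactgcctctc
The matches began 241, 230, 129 and 112 bases before the start. A match was present in 6.57% of 35116 windows of the same length from all genes in the table, and 4 or more matches in 5 windows (0.0142%). Windows were present for 9 of the 10 genes, SOCS2 being the exception, and those of the other 8 held none of these letters. The windows of SOCS3, 2 in number, belong to starts other than that of its measured isoform. Letters alone do not show that a factor binds.

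Library totals ran from 73478797 to 103625443 expected counts, the read counts that salmon assigns to transcripts. Counts of a single one of these genes in a library ran from 1767 to 81171, so counting error alone was at most 2.38% of a value. Levels are given below as CPM, counts per 1000000 of a library size scaled by TMM, a method that aligns libraries on the genes that change least. The siRNA targets fell: in the cells treated against it DHX34 went from 73.7 ± 1.11 CPM to 31.4 ± 2.32, and UPF1 likewise from 261.7 ± 8.13 to 105.6 ± 1.47 (SD, n = 3). All 9 erythroid markers checked, globins among them, were present. Markers of T, monocytic, epithelial and fibroblast cells averaged under 1 TPM in each group, apart from EPCAM, LYZ and COL1A2. The erythroid sum was 25552 to 27153 TPM in SCR, 23473 to 25585 with DHX34 depleted and 15378 to 16592 with UPF1 depleted, where 7 of the 9 markers fell. The part of this shift in the results on UPF1 below was not tested.

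Read per length, as TPM (a transcript's abundance among all transcripts, corrected for length), PIM1 and STAT5A were the most abundant of the 10 genes in SCR. PIM1 stood at 197.1 ± 2.63 and STAT5A at 187.0 ± 7.31 TPM. SOCS2 followed at 71.6 ± 2.58, STAT5B at 50.7 ± 1.83, ABL1 at 44.9 ± 3.22 and CISH at 37.2 ± 0.618 TPM. The lower end held BCR at 30.1 ± 1.64, SOCS3 at 26.1 ± 0.128, EPOR at 12.8 ± 0.757 and JAK2 at 8.91 ± 0.646 TPM (SD, n = 3). No neighbours in this order overlapped in their ranges over the SCR libraries. In the DHX34 knockdown the order changed and neighbours came to overlap: PIM1 with STAT5A, SOCS2 with STAT5B, STAT5B with ABL1, and EPOR with SOCS3. In the UPF1 knockdown STAT5A stood first at 240.8 ± 1.24 TPM, PIM1 second at 203.7 ± 1.96 and EPOR last at 13.1 ± 0.427, with no overlap between neighbours. JAK2 stood above EPOR there with JAK2-202 included, a transcript of 327 bases at 0.89, 1.85 and 2.38 TPM. The leading JAK2 isoform alone, JAK2-201, had 12.8, 13.2 and 12.7 TPM, which overlapped EPOR at 12.7, 13.6 and 13.0. TPM is relative to all transcripts in a library, and the median gene had a TPM higher than in SCR by 0.19 with DHX34 depleted and 0.23 with UPF1 depleted on the log2 scale, so changes are reported from the scaled counts.

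The question of the series was how transcripts of K562 cells respond when either helicase is depleted, and each depletion was set against SCR. A gene was called changed at an edgeR adjusted p of at most 0.005, the threshold the study used. In the DHX34 knockdown 1 of the 10 genes rose (BCR) and 3 fell (SOCS3, SOCS2 and CISH). Of all 17004 genes tested there, 5.54% rose and 4.86% fell. With UPF1 depleted 3 of the 10 rose (JAK2, BCR and STAT5A) and 3 fell (SOCS3, CISH and PIM1), beside 12.4% and 12.9% of 17184 genes. The median log2 fold change of the 10 genes was -0.02 with DHX34 depleted and -0.08 with UPF1 depleted, and that of all genes was 0.02 in each. Both comparisons used the same SCR libraries, so a direction shown by both is not seen in 2 independent sets of controls.

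**Figure D1:**
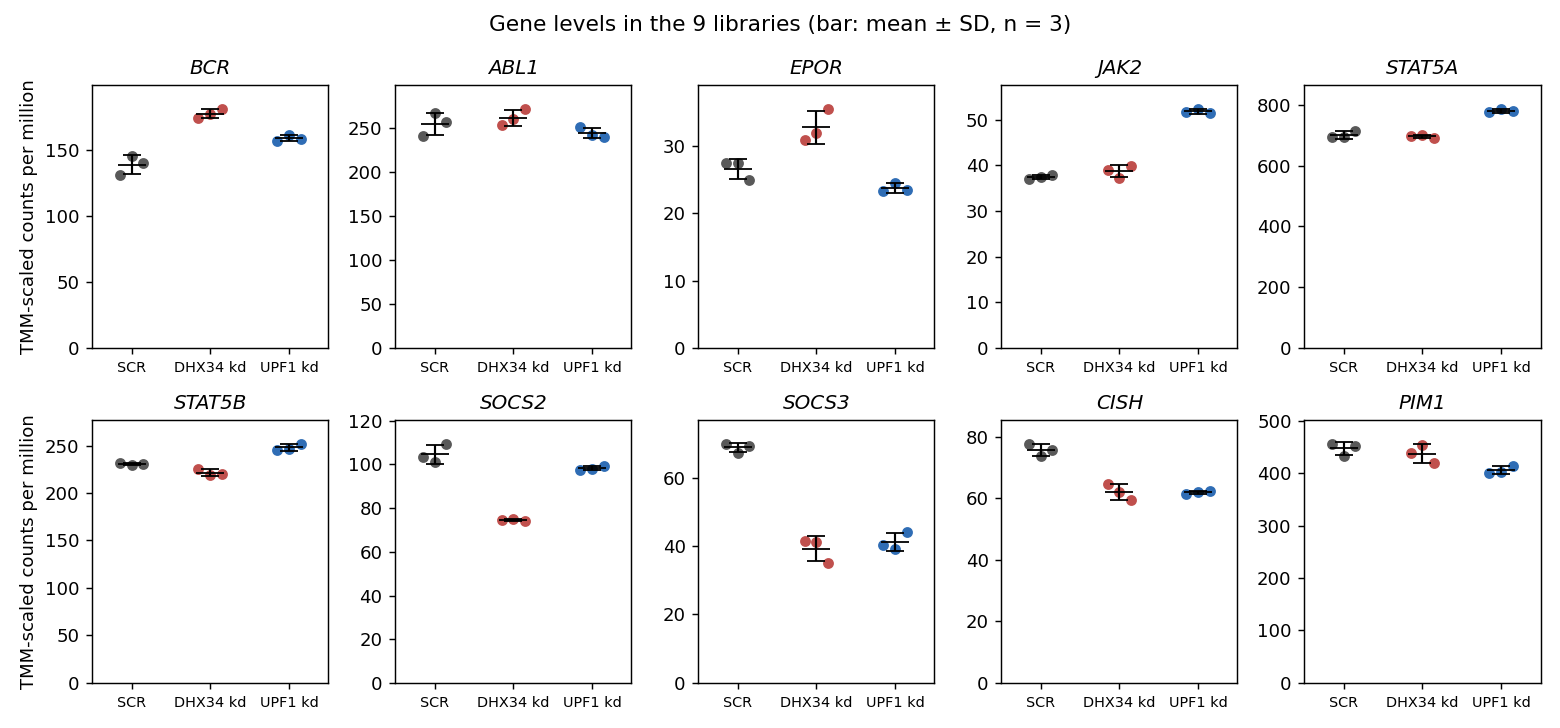
Levels of the 10 genes in each of the 9 libraries, in TMM-scaled CPM on a linear axis from 0. Points are libraries, and bars give the mean ± SD of the 3 libraries of a group; SOCS3 lies between 67.2 and 70.0 in SCR and between 34.9 and 44.2 in the 6 knockdown libraries.

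The feedback inhibitors come first. SOCS3, which blocks JAK kinases at receptors of the gp130 family and at the erythropoietin receptor, is encoded on chromosome 17 (78356778 to 78360077, minus strand, ENSG00000184557). It measured 70.0, 67.2 and 69.3 CPM in the SCR libraries, 41.4, 41.2 and 34.9 in the DHX34 knockdown, and 40.4, 39.2 and 44.2 in the UPF1 knockdown. Every knockdown library was below every SCR library, and the knockdown groups overlapped each other. The log2 fold change was -0.81 in the DHX34 knockdown (adjusted p = 1.72e-05 by edgeR, SE 0.06), a change of -43.0%. With UPF1 depleted it was -0.74 (adjusted p = 2.7e-07 by edgeR, SE 0.05), or -40.2%.

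SOCS2, which binds the growth hormone receptor and helps to mark it for degradation, is on chromosome 12 (93569814 to 93583487, plus strand, ENSG00000120833). Its levels were 103.4, 101.2 and 109.6 CPM in SCR, 74.5, 74.9 and 74.1 in the DHX34 knockdown, and 97.5, 98.1 and 99.4 in the UPF1 knockdown. The DHX34 knockdown libraries stood well apart from the others. The log2 fold change there was -0.49 (adjusted p = 1.55e-05 by edgeR, SE 0.04). In the UPF1 knockdown it was -0.10 (adjusted p = 0.0376 by edgeR, SE 0.03) and was not called, although the 3 libraries lay below SCR. An antisense gene on the opposite strand, SOCS2-AS1, shares 277 exon bases with SOCS2 and averaged 4.30, 3.03 and 8.32 CPM in SCR and in cells depleted of DHX34 and of UPF1. Whether reads were assigned by strand is not given in the sources used here, so reads from the shared bases cannot be told apart.

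CISH, the first known member of the family, whose promoter is printed above, lies on chromosome 3 (50606489 to 50611774, minus strand, ENSG00000114737). It stood at 77.7, 73.6 and 75.5 CPM in SCR, 64.7, 61.9 and 59.4 in the DHX34 knockdown and 61.4, 61.9 and 62.2 in the UPF1 knockdown. Both knockdown groups were below SCR without overlap. The log2 fold changes were -0.28 with DHX34 depleted (adjusted p = 0.00121 by edgeR, SE 0.05) and -0.30 with UPF1 depleted (adjusted p = 2.64e-05 by edgeR, SE 0.03). The call in the DHX34 knockdown was lost without SCR replicate 1, SCR replicate 3 or DHX34 knockdown replicate 2, and with length-scaled counts. CISH shares 218 exon bases with MAPKAPK3 on the opposite strand, which averaged 84.96, 81.03 and 87.96 CPM in SCR and in cells depleted of DHX34 and of UPF1.

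PIM1, on chromosome 6 (37170152 to 37175428, plus strand, ENSG00000137193), had 456.3, 432.5 and 452.3 CPM in SCR, 438.6, 453.9 and 418.6 in the DHX34 knockdown and 400.2, 402.7 and 414.0 in the UPF1 knockdown. The DHX34 knockdown libraries overlapped SCR, and those of the UPF1 knockdown were all lower. The log2 fold change with UPF1 depleted was -0.15 (adjusted p = 0.00138 by edgeR, SE 0.03). The call was lost in 6 of 15 alternative settings, among them the removal of SCR replicate 1 or 3 or of UPF1 knockdown replicate 1 or 2, and with library totals as the scale, where the log2 fold change was -0.04. In the DHX34 knockdown the log2 fold change was -0.03 (adjusted p = 0.657 by edgeR, SE 0.04).

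The kinase that activates STAT5 below cytokine receptors moved in the UPF1 knockdown. JAK2, on chromosome 9 (4984390 to 5129948, plus strand, ENSG00000096968), measured 36.96, 37.4 and 37.9 CPM in SCR, 39.05, 37.3 and 39.9 in the DHX34 knockdown, and 51.6, 52.3 and 51.3 in the UPF1 knockdown. The SCR and DHX34 knockdown libraries overlapped, and the UPF1 knockdown libraries were all higher. The log2 fold change was 0.46 (adjusted p = 1.27e-06 by edgeR, SE 0.04) with UPF1 depleted, a rise of 37.9%. With DHX34 depleted it was 0.05 (adjusted p = 0.422 by edgeR, SE 0.04), and it was 0.22 with length-scaled counts and 0.14 with library totals as the scale, neither of them called. Length-scaled counts are built from TPM, in which the short JAK2-202 averaged 0.62 in SCR and 2.02 with DHX34 depleted, at no more than 0.18 CPM. The leading isoform, JAK2-201, changed by 0.04 (edgeR adjusted p = 0.759). JAK2-201 was quantified at a length of 5285 bases, against 7023 in the later GENCODE annotation. The part of JAK2-202 in the 0.22 was not tested.

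The STAT5 genes are neighbours on chromosome 17 and encode transcription factors with largely overlapping roles. STAT5A (42287547 to 42311943, plus strand, ENSG00000126561) had 694.2, 694.2 and 715.1 CPM in SCR, 696.6, 701.0 and 691.4 in the DHX34 knockdown and 775.4, 786.9 and 779.5 in the UPF1 knockdown. It rose in the UPF1 knockdown by a log2 fold change of 0.15 (adjusted p = 0.000318 by edgeR, SE 0.02), and the DHX34 knockdown libraries overlapped SCR (log2 fold change -0.01, adjusted p = 0.893 by edgeR, SE 0.03). The call in the UPF1 knockdown was lost once the trend of changes with gene length was removed, and the value was 0.25 with library totals as the scale.

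STAT5B (42199176 to 42288633, minus strand, ENSG00000173757) had 231.6, 229.3 and 230.9 CPM in SCR, 225.6, 219.1 and 219.7 in the DHX34 knockdown and 245.45, 246.6 and 252.1 in the UPF1 knockdown. These groups did not overlap, but the differences from SCR were small: -0.06 (adjusted p = 0.258 by edgeR, SE 0.03) and 0.10 (adjusted p = 0.00914 by edgeR, SE 0.03) on the log2 scale, and neither was called. The value with UPF1 depleted passed the threshold in 4 of 15 alternative settings, and that with DHX34 depleted was -0.17, still not called, with the length trend removed. Of the stretches of 31 bases in the leading isoform of STAT5A, 16.1% also occur in transcripts of STAT5B. How many reads could not be told apart between the genes for this reason was not counted. The genes also overlap by 415 exon bases on opposite strands.

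EPOR, the receptor for erythropoietin, is on chromosome 19 (11377207 to 11384342, minus strand, ENSG00000187266). It had 27.45, 27.4 and 24.9 CPM in SCR, 30.8, 31.8 and 35.5 in the DHX34 knockdown and 23.2, 24.5 and 23.5 in the UPF1 knockdown. The groups did not overlap: the DHX34 knockdown was highest and the UPF1 knockdown lowest. Neither difference from SCR was called, at log2 fold changes of 0.30 (adjusted p = 0.00518 by edgeR, SE 0.06) and -0.17 (adjusted p = 0.025 by edgeR, SE 0.05). The value in the DHX34 knockdown was close to the threshold and passed it in 5 of 15 alternative settings, DESeq2 among them. The value with UPF1 depleted was called without SCR replicate 3.

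BCR and ABL1 supply the ends of the fusion. BCR, a GTPase-regulating protein whose coiled coil drives oligomerization of BCR-ABL, is on chromosome 22 (23179704 to 23318037, plus strand, ENSG00000186716). It stood at 131.4, 145.4 and 139.7 CPM in SCR, 174.2, 177.1 and 181.1 in the DHX34 knockdown, and 156.7, 161.1 and 158.6 in the UPF1 knockdown. The groups did not overlap, SCR being lowest and the DHX34 knockdown highest. The log2 fold changes were 0.36 (adjusted p = 0.000192 by edgeR, SE 0.04) with DHX34 depleted and 0.19 (adjusted p = 0.00151 by edgeR, SE 0.04) with UPF1 depleted. BCR is long, and the 1701 and 1719 tested genes in the same decile of length had a median log2 fold change of 0.15 with DHX34 depleted and 0.11 with UPF1 depleted. The call for DHX34 held in all 15 alternative settings, with 0.24 as the smallest value. That for UPF1 was lost in 7, among them the removal of the length trend, where it was 0.09, and the removal of SCR replicate 1 or 3 or of any UPF1 knockdown library, and it was 0.29 with library totals as the scale.

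ABL1, the tyrosine kinase of the fusion, is on chromosome 9 (130713043 to 130887675, plus strand, ENSG00000097007). It had 241.1, 266.4 and 256.3 CPM in SCR, 253.2, 259.6 and 271.5 in the DHX34 knockdown and 250.5, 242.3 and 239.1 in the UPF1 knockdown. SCR overlapped both knockdown groups, while the DHX34 knockdown lay above the UPF1 knockdown. The log2 fold changes from SCR were 0.04 (adjusted p = 0.563 by edgeR, SE 0.04) and -0.07 (adjusted p = 0.182 by edgeR, SE 0.04). ABL1 is long as well, and once the length trend was removed it was called lower with UPF1 depleted, at -0.18 (edgeR adjusted p = 0.000334). The transcript reference named in the study's methods was compiled from Ensembl genes, in which BCR and ABL1 are separate. Reads of the fusion and of the normal alleles therefore cannot be told apart in either gene's value. Of the 31-base stretches in the leading BCR isoform, 10.0% occur in other genes, and 7.82% occur in a single gene, ENSG00000284128. That gene averaged 0.0274, 0.131 and 0.0776 CPM in SCR, the DHX34 knockdown and the UPF1 knockdown. The 9 BCR pseudogenes together averaged 0.480, 0.865 and 0.568 CPM in the same groups.

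**Figure D2:**
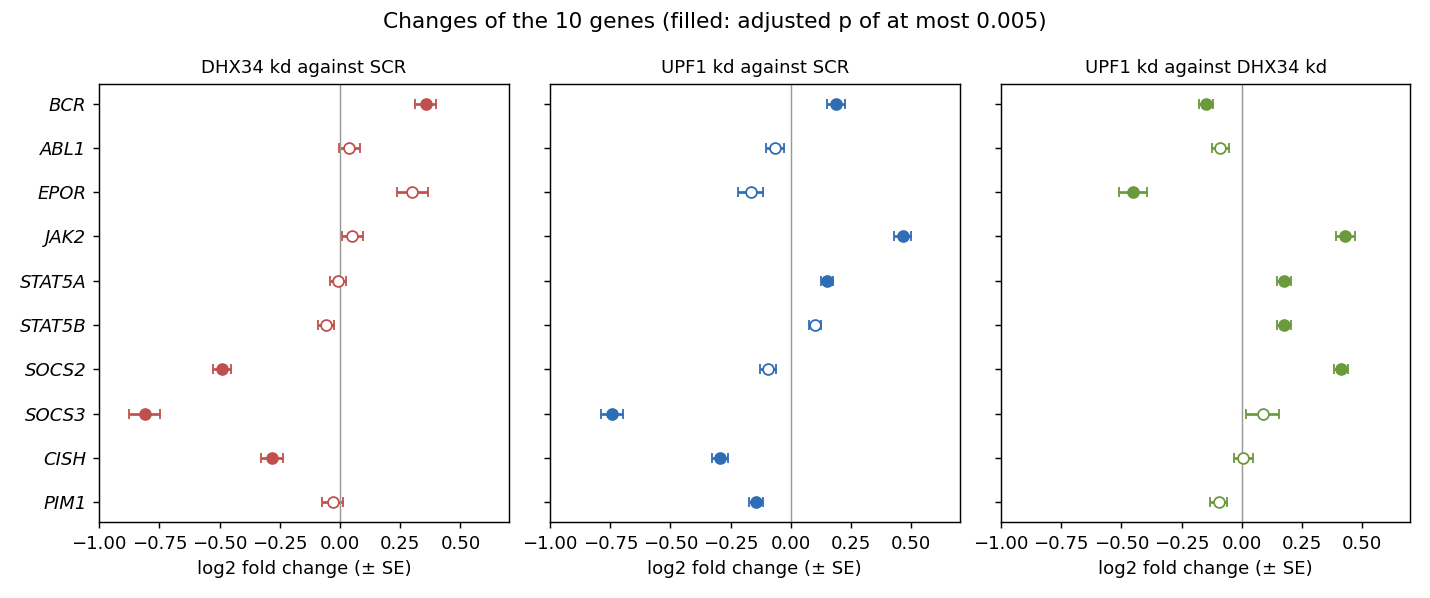
Log2 fold changes of the 10 genes with their standard errors, in the DHX34 knockdown and the UPF1 knockdown against SCR and in the UPF1 knockdown against the DHX34 knockdown (n = 3 libraries a group). Filled points passed an edgeR adjusted p of 0.005; SOCS3 is far below 0 in the first and second panels, at -0.81 and -0.74, and open in the last, at 0.09.

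The knockdowns were then compared with each other, without the SCR libraries, to test where they differ. Of the 10 genes, 4 were higher with UPF1 depleted than with DHX34 depleted and 2 were lower, beside 9.89% and 7.47% of all 17435 genes. JAK2 was higher by 0.43 on the log2 scale (adjusted p = 1.16e-05 by edgeR, SE 0.04) and SOCS2 by 0.41 (adjusted p = 2.66e-06 by edgeR, SE 0.03). STAT5A was higher by 0.18 (adjusted p = 0.000845 by edgeR, SE 0.03) and STAT5B by 0.17 (adjusted p = 0.00107 by edgeR, SE 0.03). EPOR, the receptor, was lower, with a log2 fold change of -0.45 (adjusted p = 0.000154 by edgeR, SE 0.06), and BCR with one of -0.15 (adjusted p = 0.00308 by edgeR, SE 0.03). SOCS3 and CISH, which fell in each knockdown, gave 0.09 (adjusted p = 0.387 by edgeR, SE 0.07) and 0.01 (adjusted p = 0.922 by edgeR, SE 0.04), so no difference between the knockdowns was found for them at this spread. The median over the 10 genes was 0.05 and over all genes 0.01. Without UPF1 knockdown replicate 2 or replicate 3 the calls came down to 3, which were JAK2, SOCS2 and EPOR. STAT5A also lost its call without DHX34 knockdown replicate 1, STAT5B without UPF1 knockdown replicate 1 or DHX34 knockdown replicate 2, BCR without any 1 of these 3 libraries, and JAK2 with length-scaled counts. PIM1 was called without DHX34 knockdown replicate 3, at -0.14.

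Isoforms of these genes were examined because depletion of an NMD factor can raise transcripts that NMD would remove. Of the 67 isoforms, 45 had counts enough to be tested. In the DHX34 knockdown edgeR called 0 of the 45 (14 had an unadjusted p under 0.05, and DESeq2 called 6), beside 0.0463% of all 60416 isoforms tested, of which 15.2% had an unadjusted p under 0.05. For UPF1 it called 3, beside 2.59% of 62497, while 16 had an unadjusted p under 0.05, beside 22.7% of all, and DESeq2 called 10. These were the leading isoforms of genes already described: SOCS3-201 with a log2 fold change of -0.79 (adjusted p = 0.00118 by edgeR, SE 0.05), JAK2-201 with 0.42 (adjusted p = 0.00166 by edgeR, SE 0.03) and CISH-201 with -0.34 (adjusted p = 0.00366 by edgeR, SE 0.04). Leaving out any single library took this count to 0 or 1.

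EPOR was the only one of the 10 genes with isoforms annotated as NMD substrates, 3 of its 8. Their summed level was 1.84 ± 0.408 TPM in SCR, 2.20 ± 0.0947 with DHX34 depleted and 1.71 ± 0.232 with UPF1 depleted (SD, n = 3). The most abundant of them, EPOR-207, made up 12.4 ± 1.4% of EPOR in SCR and 12.2% in each knockdown. Its log2 fold change was 0.26 with DHX34 depleted (edgeR adjusted p = 0.562) and -0.23 with UPF1 depleted (edgeR adjusted p = 0.626), and neither was called. A retained-intron isoform, EPOR-203, held 14.8, 13.4 and 18.1% of EPOR in SCR and 15.8, 18.4 and 24.0% in the DHX34 knockdown, overlapping groups. Retained-intron isoforms of STAT5A summed to 9.65 ± 3.41 TPM in SCR, 15.7 ± 3.82 with DHX34 depleted and 13.3 ± 0.261 with UPF1 depleted. Those of STAT5B summed to 5.72 ± 1.25, 7.34 ± 1.81 and 8.26 ± 0.446 TPM (SD, n = 3). The mean sums of CISH (1.39 ± 0.160, 1.19 ± 0.258 and 1.27 ± 0.101) were lower in the knockdowns. So were those of BCR, which were close to 0 (0.0737 ± 0.0370, 0.0413 ± 0.0123 and 0.0464 ± 0.0343). The TPM of the median gene was itself higher than in SCR, by 0.19 with DHX34 depleted and 0.23 with UPF1 depleted on the log2 scale. These sums were not tested.

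The share of each isoform within its gene was tested with limma for 24 isoforms of these genes. At an adjusted p of at most 0.05 none passed in either knockdown, beside 0.303% of all 31971 isoforms tested in the DHX34 knockdown and 1.25% of 32468 in the UPF1 knockdown. At an unadjusted p under 0.05 there were 7 and 6, beside 12.4% and 18.1% of all isoforms tested. The shares of a gene add up to its whole, so these tests are not independent. ABL1-201 and ABL1-202, whose changes mirrored each other, were both counted in each knockdown, and JAK2-201 and JAK2-202 with DHX34 depleted. The diffSpliceDGE test of edgeR called 0 in each, with 4 and 5 at an unadjusted p under 0.05. The lowest limma adjusted p was 0.176 with DHX34 depleted and 0.111 with UPF1 depleted, both in ABL1.

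ABL1 has alternative first exons, and ABL1-202, which starts 130713043, far upstream of ABL1-201 at 130835254, encodes the form with the other amino terminus. ABL1-202 made up 8.5, 9.3 and 7.7% of ABL1 in SCR, 14.6, 13.3 and 12.02% in the DHX34 knockdown and 13.1, 11.9 and 14.4% in the UPF1 knockdown. Every knockdown library was above every SCR library, while the limma adjusted p were 0.223 and 0.111. ABL1-202 is 3824 bases long in the deposited tables and 6719 in the later GENCODE annotation, so its reads were assigned to a shorter model. Reads of the fusion cannot be told apart in the ABL1 isoforms either. The shares of ABL1-201 and ABL1-202 therefore cannot be taken as use of the ABL1 first exons. In BCR the longest isoform, BCR-201, held 11.6, 13.9 and 14.1% in SCR, 8.9, 8.4 and 9.5% in the DHX34 knockdown and 10.0, 10.4 and 10.9% in the UPF1 knockdown. SOCS2-207 held 29.1, 29.4 and 31.01% of SOCS2 in SCR, 25.4, 21.1 and 23.5% in the DHX34 knockdown and 26.9, 25.7 and 26.3% in the UPF1 knockdown. These shares separated the groups without passing the test (limma adjusted p = 0.248 and 0.275 for BCR-201, and 0.248 and 0.234 for SOCS2-207). STAT5A-207, at 25.7, 27.8 and 27.7% in SCR, was likewise lower in every knockdown library (limma adjusted p = 0.437 and 0.195). Of the 24 tested shares the largest change with DHX34 depleted was that of JAK2-202, a transcript of 327 bases with an abundance of at most 0.18 CPM, which held 5.93, 11.3 and 3.19% of JAK2 in SCR, 19.5, 12.5 and 19.4% in the DHX34 knockdown and 6.17, 12.1 and 15.25% in the UPF1 knockdown (limma adjusted p = 0.3 and 0.53). SOCS2-202, SOCS2-206 and STAT5A-205 were higher than SCR in all 3 DHX34 knockdown libraries, SOCS2-201 was higher and STAT5B-201 lower in all 3 of the UPF1 knockdown, and ABL1-201 mirrored ABL1-202. SOCS3, CISH, PIM1, STAT5B and ABL1 were each carried by a single isoform, whose mean share in a group was 83.6% or more.

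**Figure D3:**
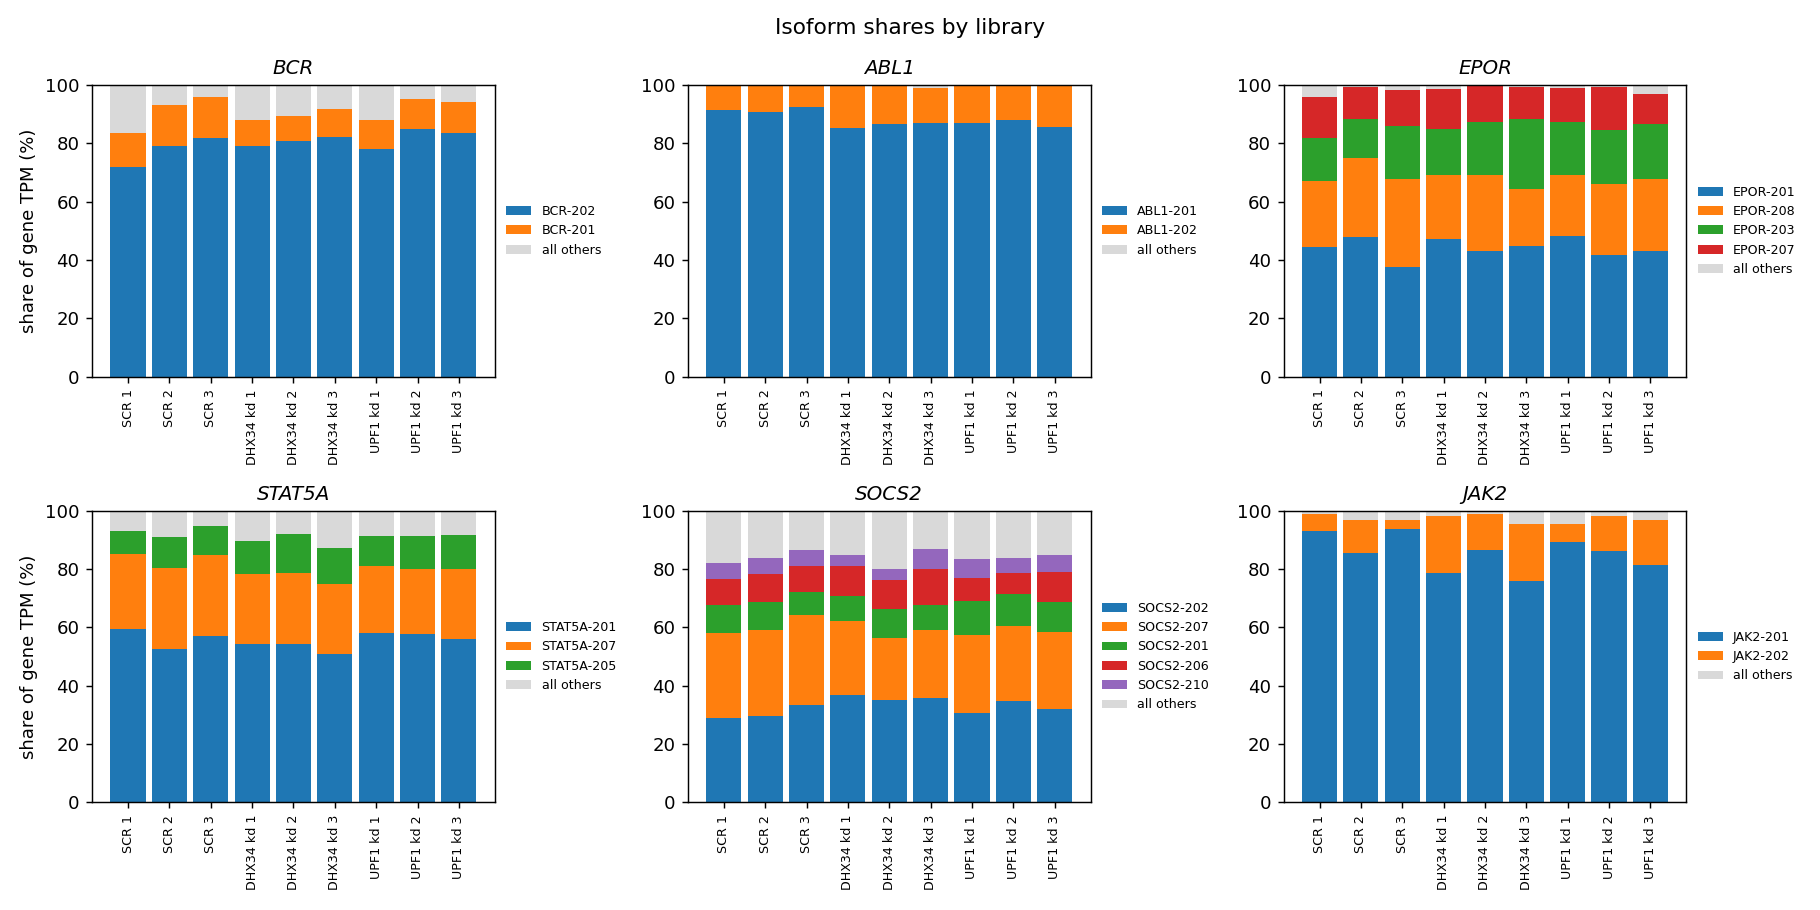
Share of each gene's TPM held by its named isoforms in each of the 9 libraries, for 6 of the 10 genes. Each bar is a library and sums to 100%, with unnamed isoforms in grey; the orange part of ABL1, ABL1-202, is 7.7 to 9.3% in SCR and 11.9 to 14.6% in the knockdowns.

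The rest of the pathway was read from a list of 82 genes by role, of which 71 passed the filter in the DHX34 knockdown and 72 in the other comparisons. With DHX34 depleted 11 rose and 6 fell, and with UPF1 depleted 7 rose and 14 fell. The shares of all genes, against which these counts and those of each role below are to be read, were 5.54% up and 4.86% down for DHX34 and 12.4% up and 12.9% down for UPF1. The medians of the list were 0.03 and -0.02 on the log2 scale, beside 0.02 for all genes in each. Against the DHX34 knockdown, 6 were higher and 16 lower with UPF1 depleted, beside 9.89% and 7.47% of all 17435 genes. The median of the list was -0.13 there, beside 0.01 for all genes.

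Among 20 negative regulators, 4 rose and 3 fell in the DHX34 knockdown. INPP5D, a lipid phosphatase known as SHIP1, rose most: it had 1.94, 2.72 and 2.82 CPM in SCR, 9.39, 9.65 and 9.06 in the DHX34 knockdown and 2.88, 2.46 and 2.33 in the UPF1 knockdown. Its log2 fold changes were 1.91 (adjusted p = 6.84e-06 by edgeR, SE 0.13) and 0.03 (adjusted p = 0.92 by edgeR, SE 0.17). PTPRC, the CD45 phosphatase, which dephosphorylates JAK and SRC kinases, had 45.4, 47.3 and 47.5 CPM in SCR, 84.1, 80.4 and 80.2 in the DHX34 knockdown and 62.7, 62.4 and 62.8 in the UPF1 knockdown. It rose in both, by 0.80 and 0.42 on the log2 scale (edgeR adjusted p = 9.93e-07 and 2.73e-06). DOK2, an adaptor that restrains tyrosine kinases (0.90, edgeR adjusted p = 0.000894), and PTPN1 (0.35, edgeR adjusted p = 5.08e-05) also rose with DHX34 depleted.

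INPP5D, PTPRC and DOK2 are best known from leukocytes. Of 4 monocyte and macrophage markers, only LYZ had counts enough to be tested for DHX34, and it rose. Its mean TPM was 14.2 for the controls, against 31.1 after DHX34 depletion and 12.3 after UPF1 depletion. CD14, CSF1R and CD163 averaged under 0.1 TPM in every group, so a shift towards monocytic cells cannot be read from LYZ alone. The fibroblast marker COL1A1, at a mean under 1 TPM, rose as well after DHX34 depletion (log2 fold change 2.78, edgeR adjusted p = 2.26e-06). COL1A2 was lower there but not called (-0.58, edgeR adjusted p = 0.00744). Whether the rises of INPP5D, PTPRC and DOK2 are tied to these marker changes was not tested. In these bulk samples a change in the share of cells and a change in RNA per cell cannot be told apart.

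SOCS1, the closest relative of SOCS3 in action on JAK kinases, fell in both knockdowns. It averaged 14.4 ± 0.630 CPM in SCR (SD, n = 3) and had 8.39, 9.69 and 7.79 in the DHX34 knockdown and 9.64, 10.2 and 9.70 in the UPF1 knockdown, with log2 fold changes of -0.74 (adjusted p = 0.00022 by edgeR, SE 0.09) and -0.56 (adjusted p = 2.13e-05 by edgeR, SE 0.06). The T-cell phosphatase PTPN2 (-0.30, edgeR adjusted p = 0.00134) and PIAS2 (-0.28, edgeR adjusted p = 0.00158) fell with DHX34 depleted. With UPF1 depleted 2 of the 20 rose (PTPRC and INPPL1) and 4 fell (SOCS1, SOCS6, PTPN6 and SH2B3, from -0.15 to -0.68).

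Of 10 tested STAT5 targets other than the members, CCND2 and ID1 fell in the DHX34 knockdown, and CCND2, ID1, MCL1 and PIM2 in the UPF1 knockdown. None rose, while at an unadjusted p under 0.05 there were 6 and 5 of the 10 in either direction, beside 36.6% and 47.3% of all genes, and DESeq2 called 3 and 4. CCND2, a cyclin of the G1 phase, had 65.3, 64.4 and 69.1 CPM in SCR, 46.8, 44.1 and 44.3 in the DHX34 knockdown and 49.0, 44.3 and 45.7 in the UPF1 knockdown (log2 fold changes -0.55 and -0.52, edgeR adjusted p = 1.72e-05 and 2.79e-06). ID1, an inhibitor of basic helix-loop-helix factors that is also a target of BMP signals, had 122.0, 117.4 and 122.9 CPM in SCR, 98.0, 92.05 and 87.7 in the DHX34 knockdown and 65.9, 67.0 and 64.9 in the UPF1 knockdown (-0.38 and -0.88, edgeR adjusted p = 0.000244 and 2.96e-09). The survival factor MCL1 fell by 0.21 on the log2 scale with UPF1 depleted (edgeR adjusted p = 0.000214).

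Of the other JAK and STAT genes, TYK2 (0.29, edgeR adjusted p = 0.00182), STAT2 (0.39, edgeR adjusted p = 0.00117) and STAT6 (0.53, edgeR adjusted p = 2.63e-05) rose among 7 tested in the DHX34 knockdown. For UPF1, edgeR called 0 of the 7 (4 had an unadjusted p under 0.05, and DESeq2 called 2). STAT6, which mediates interleukin-4 signals, had 38.96, 39.6 and 36.6 CPM in SCR, 54.9, 55.4 and 55.9 in the DHX34 knockdown and 36.3, 34.6 and 33.9 in the UPF1 knockdown, and its difference between the knockdowns was -0.65 (edgeR adjusted p = 5.56e-07).

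Among cytokine receptors edgeR called 0 of 15 in the DHX34 knockdown (7 had an unadjusted p under 0.05, and DESeq2 called 0). With UPF1 depleted 5 of 16 fell and IFNAR1 rose (0.24, edgeR adjusted p = 0.000528). IL2RG, the common gamma chain, had 23.0, 22.0 and 21.7 CPM in SCR and 9.04, 10.9 and 9.85 in the UPF1 knockdown, a log2 fold change of -1.16 (adjusted p = 1.92e-07 by edgeR, SE 0.07). KIT, the stem cell factor receptor, was low throughout and fell by 1.11 on the log2 scale (adjusted p = 0.000411 by edgeR, SE 0.18), from 1.80, 2.14 and 1.92 to 0.92, 1.01 and 0.79 CPM. The leptin receptor LEPR (-0.27), the gp130 chain IL6ST (-0.27) and IFNGR2 (-0.20) also fell.

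Of 19 tested adaptors and partner kinases of BCR-ABL, 4 rose and 1 fell in each knockdown. ABL2, the paralog of ABL1, rose in both (0.43 and 0.33, edgeR adjusted p = 0.000435 and 0.000226), as did PIK3R1, a regulatory subunit of PI3K (0.44 and 0.28, edgeR adjusted p = 0.00126 and 0.00307). BTK, a kinase of the B-cell receptor pathway, had 74.7, 75.25 and 73.3 CPM in SCR, 107.9, 105.5 and 105.7 in the DHX34 knockdown and 70.2, 67.4 and 67.0 in the UPF1 knockdown. It rose with DHX34 depleted (0.52, edgeR adjusted p = 6.84e-06) and differed between the knockdowns by -0.63 (edgeR adjusted p = 2.16e-07). The SRC-family kinase LYN fell with UPF1 depleted (-0.23, edgeR adjusted p = 5.62e-05), and GAB2, the adaptor that links BCR-ABL to PI3K, rose (0.23, edgeR adjusted p = 0.00106).

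**Figure D4:**
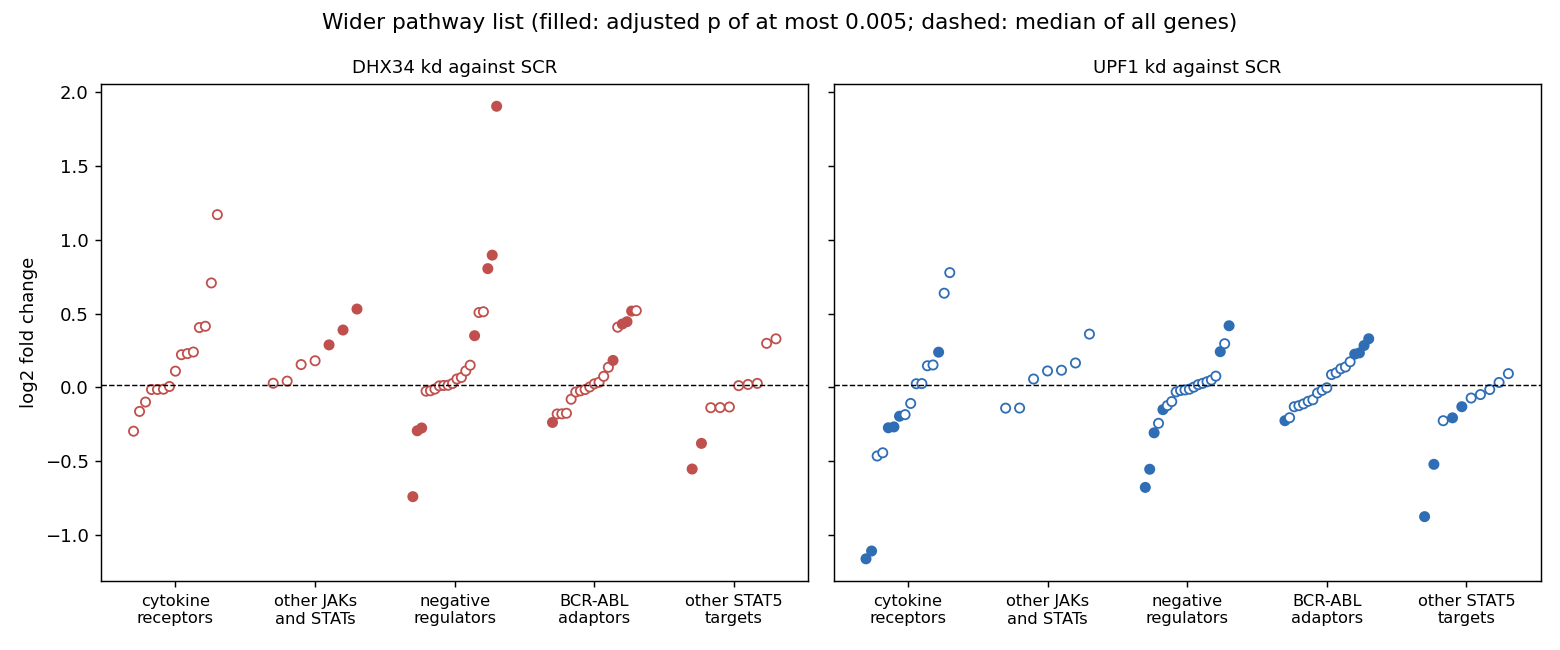
Log2 fold change of each tested gene of the wider pathway list, by role, in the DHX34 knockdown (left) and the UPF1 knockdown (right) against SCR (n = 3 libraries a group). Filled points passed an edgeR adjusted p of 0.005 and the dashed line is the median of all genes tested, 0.02; INPP5D is the highest point on the left at 1.91, and IL2RG the lowest on the right at -1.16.

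For the members with the largest change, SOCS3 and SOCS2, the genes with the most similar profile over the 9 libraries were sought among 10064 genes, by the root mean square difference of log2 CPM after centring. Those nearest to SOCS3 were CFAP161 (0.0916), SOCS1 (0.116) and EGLN3 (0.119). Those nearest to SOCS2 were SPRYD3 (0.0385), ITPK1 (0.0454) and SINHCAF (0.0458). These genes were picked for their likeness over the same libraries, so the directions that follow were fixed by the choice. The first set had log2 fold changes of -0.88, -0.74 and -0.67 with DHX34 depleted and -0.73, -0.56 and -0.48 with UPF1 depleted. The genes nearest to SOCS2 had log2 fold changes of -0.51, -0.51 and -0.44 in the DHX34 knockdown and -0.09, -0.08 and -0.05 in the UPF1 knockdown.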

How the data were processed

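The 9 libraries were grouped by the treatment named in the labels, 3 each for SCR, DHX34 knockdown and UPF1 knockdown. The authors quantified reads with salmon against coding and noncoding cDNA of Ensembl on GRCh38, with correction for GC bias. The deposited table of each library holds, for each of 203027 transcripts, the expected count, the TPM and the effective length. The authors' sleuth tables (p, q and effect b) and SUPPA2 tables (difference in the fraction spliced in, with p) hold their own comparisons and were not used.

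Transcripts were joined to GENCODE release 44, which matched 97.9% of them, holding 98.08 to 98.12% of counts, and expected counts were summed per gene and rounded. For genes and isoforms the test was that of edgeR 4.0.16, run in R 4.3.3 (TMM, filterByExpr with a minimum count of 10, quasi-likelihood fits, adjustment over all features by Benjamini-Hochberg). Isoform shares of gene TPM were tested with limma 3.58.1 after an arcsine square-root transform, for genes whose mean reached 1 TPM and shares of at least 5%. DESeq2 1.42.0 and diffSpliceDGE were alternatives. The fits were also run on counts simulated from edgeR's own fitted model, and on shares simulated with a preset noise. Such data cannot show that the fits suit these libraries. P-values set a difference against the spread between the libraries of a group, estimated with help from all features. Uncertainty in salmon's assignment of reads was not included.

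The members, lists and tests were chosen with earlier results of these data known, and the removal of the gene length trend and the use of library totals as scale were chosen after seeing the data. Named besides the members were called genes of the wider list with a mean of at least 1 CPM, isoforms that averaged 0.5 TPM or more and held a share of at least 5% in any group (at most 5 a gene), called isoforms, and the 3 genes of at least 5 CPM nearest to each of 2 members. Deviations of same-numbered libraries from their group means correlated at -0.082 to 0.081, so the numbers were not taken to pair the libraries. Of the marker lists checked, 1 is not reported here.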

Additional observations from a re-analysis of the deposited data

How the results depend on the processing

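Over 15 alternative settings of each comparison, the fall of SOCS3 in both knockdowns, of SOCS2 in the DHX34 knockdown and of CISH in the UPF1 knockdown, the rise of BCR in the DHX34 knockdown and of JAK2 in the UPF1 knockdown, and the differences of SOCS2 and EPOR between the knockdowns were called in every setting. With library totals as the scale the median of all genes moved by 0.08 with DHX34 depleted and 0.10 with UPF1 depleted.

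The number of isoforms called in the DHX34 knockdown went from 0 to 4 at an adjusted p of at most 0.05 and to 6 with DESeq2. In the UPF1 knockdown it went from 3 to 9 and 10 under the same changes, and leaving out a library gave 0 to 1. Leaving out a library gave 3 to 7 genes called between the knockdowns, against 6. With the replicate number as a block, the isoforms called in the UPF1 knockdown went to 0, and the genes called between the knockdowns to 4. The numbers only name the libraries, so this block is no pairing. The cause of these shifts was not tested.

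Sign changes were seen in values that were not called, and none was called after the change. With the length trend removed, JAK2 and ABL1 with DHX34 depleted were -0.0443 and -0.0978, and CISH between the knockdowns was -0.0142. With library totals as the scale, STAT5A, PIM1 and STAT5B with DHX34 depleted were 0.0753, 0.0525 and 0.0271, and ABL1 and SOCS2 with UPF1 depleted 0.0353 and 0.0063. STAT5A with DHX34 depleted was 0.0104 with length-scaled counts. CISH between the knockdowns was -0.00521 with RLE size factors, -0.00526 with DESeq2, -0.000197 without the filter and -0.00439 in a fit of all 9 libraries. Leaving out a library gave -0.0174 to 0.0065 for STAT5A and -0.063 to 0.00651 for PIM1 with DHX34 depleted, and -0.0373 to 0.0389 for CISH and -0.0027 to 0.128 for SOCS3 between the knockdowns. At 3 libraries a group, calls on genes with log2 differences as large as 0.28 in size, and the calls on isoforms, could be lost when 1 library was left out.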
